A study of Homo sapiens with 6 samples.

Results

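The mRNAs described here encode 7 replacement histone variants, the histones that are made outside the programme that couples histone synthesis to DNA replication. They are H2AX, H2AZ1, H2AZ2, MACROH2A1, H3-3A, H3-3B and H1-10. Cross-link positions were assigned to them when they lay on the same strand inside an exon of the gene in GENCODE release 44, with each position counted once. By this rule the 7 genes, out of 12133 protein-coding genes with any exon count, held 1721 of the 1179243 positions in DoHH-2 and 154 of the 78474 positions in GM01953.

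eIF4B is a translation initiation factor that stimulates the RNA helicase eIF4A. Its contacts with RNA were mapped by iCLIP, in which UV light joins the protein to RNA, the RNA is trimmed, and a cDNA that stops at the join marks the cross-linked nucleotide. The cells were DoHH-2, a line derived from a diffuse large B-cell lymphoma (DLBCL), and GM01953, a control B-cell line without the disease. The 2 lines are not isogenic, and neither received a treatment. The labels list 4 DoHH-2 and 2 GM01953 samples, but the values are 1 pooled table per line, so there was no spread between replicates and no test between the lines. All comparisons below are descriptions of these 2 tables. Their intervals are 95% exact (Clopper-Pearson or Poisson) and cover counting error only.

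Most histones are replication-dependent. Their genes have no introns, and their mRNAs end in a conserved stem–loop in place of a poly(A) tail, are made in S phase and are degraded when DNA synthesis stops. Replacement variants are made throughout the cell cycle, mostly from genes with introns and polyadenylated mRNAs, and they are placed into chromatin by chaperones of their own. H2AX stands between the types, since its single-exon gene can give a short mRNA that ends after a stem–loop and a longer polyadenylated one. H2AX is the H2A that is phosphorylated beside DNA breaks. H2AZ1 and H2AZ2 encode nearly the same protein, H2A.Z, which is found around transcription start sites. MACROH2A1 encodes an H2A with a large additional macro domain and is known from silent chromatin such as the inactive X. H3-3A and H3-3B encode the same protein, H3.3, the H3 of active genes and telomeres. H1-10 encodes the linker histone H1.10, also called H1x.

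The sequences that carried the most counts are shown first. Each is the GRCh38 reference in DNA letters, 5′ to 3′ on the transcribed strand, with the cross-linked base in capitals and up to 12 nt to each side. H2AX gave the highest single position of all members, in both lines the same base, which is the first base of the stop codon. H2AZ1 and H3-3B had theirs close to the cap in DoHH-2, and H2AZ2 had its highest there 231 nt after the stop codon, in the 3′ UTR. H1-10 had its highest GM01953 position in the 5′ UTR. The last line is the histone stem–loop of H2AX, with the 2 arms of the stem in capitals and the loop in lower case.
H2AX, stop codon, chr11:119094965-119094965, minus strand: tcccaggagtacTaagagggcccgc
H2AZ1, 5′ UTR, chr4:99950253-99950253, minus strand: tcgcggtgcgacGaaggagtaggtg
H2AZ2, 3′ UTR, chr7:44834270-44834270, minus strand: ctcccgtgtgttTtatacaaaaatg
H3-3B, 5′ UTR, chr17:75779737-75779737, minus strand: cggtgctggtttTtcgctcgtcgac
H1-10, 5′ UTR, chr3:129316176-129316176, minus strand: gcctaggtctacGtccccagctcca
H2AX stem–loop, chr11:119094898-119094913, minus strand: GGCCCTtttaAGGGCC

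DoHH-2 was sequenced more deeply, with 2033156 cDNA counts against 167197 in GM01953. Levels are given as CPM, the counts of a gene out of every 1000000 in the table of that line. A single count was therefore worth 0.492 CPM in DoHH-2 and 5.98 CPM in GM01953, and 83.9% and 60.8% of the positions held a single count. Protein-coding exons held 77.8% and 70.6% of all counts. The tables hold no RNA level, so more binding of an mRNA and more of that mRNA could not be told apart, nor could fewer expressing cells and less RNA per cell. All 5 B-cell markers had counts in both lines, and the markers of T cells, monocytes and erythroid cells were at 0 in both. One B-cell marker, MS4A1, which encodes CD20, was low in DoHH-2 with 12 counts against 145 in GM01953.

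Together the 7 mRNAs held 5144 exon counts in DoHH-2 and 314 in GM01953. This was 2530 CPM (2461 to 2600) and 1878 CPM (1676 to 2098), a DoHH-2 over GM01953 ratio of 1.35 (1.20 to 1.51). The replication-dependent histone mRNAs, 69 genes, held 78.9 times as many counts in DoHH-2 and 75.3 times as many in GM01953. Positions with an FDR below 0.05 in the deposited tables, called sites here, held 77.4% of the counts of the variants in DoHH-2, where sites held 43.7% of the whole table. In GM01953 the shares were 55.4% and 55.6%. The variants thus had more of their counts at sites than the table as a whole in DoHH-2, and a like share in GM01953.

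H2AX was the variant with the most counts in both lines. It held 1941 exon counts in DoHH-2, or 955 CPM (913 to 998), and 133 in GM01953, or 795 CPM (666 to 943). It ranked 74th and 80th among protein-coding genes. Its ratio of 1.20 (1.01 to 1.44) was the smallest of the 5 that lay above 1, and its interval included 1 when scaled to the counts in coding exons (1.09, 0.914 to 1.31). H2AZ1 followed with 1344 counts (661 CPM) and 68 (407 CPM), a ratio of 1.63 (1.27 to 2.11). Its near-copy H2AZ2 held 372 counts (183 CPM) and 17 (102 CPM), a ratio of 1.80 (1.11 to 3.12). The H2A.Z genes thus stood far apart in level and had overlapping ratios.

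MACROH2A1 held 433 counts in DoHH-2, or 213 CPM, and 17 in GM01953, or 102 CPM. Its ratio of 2.09 (1.29 to 3.63) was the highest of the 7 and the only one of at least 2-fold over all exons. Neither held throughout, since on canonical exons H2AZ2 had 2.26 and MACROH2A1 2.24. At sites alone, as shares of all counts at sites, H2AZ2 had 10.2 (3 GM01953 counts), H2AZ1 3.54 and H3-3B 2.94 against 2.39 for MACROH2A1. H3-3B held 749 counts (368 CPM) and 39 (233 CPM), a ratio of 1.58 (1.14 to 2.24). H3-3A held 22 counts (10.8 CPM) and 3 (17.9 CPM, the floor that 3 counts set), a ratio of 0.603 with an interval from 0.181 to 3.15. H1-10 went the other way, with 283 counts (139 CPM) in DoHH-2 and 37 (221 CPM) in GM01953. Its ratio of 0.629 (0.445 to 0.912) was the only one whose whole interval lay below 1 by counts. The interval included 1 without the highest position (0.754, 0.516 to 1.14) and at sites alone (0.912, 0.523 to 1.72), and by distinct positions H2AX and H2AZ1 lay wholly below 1 as well, at 0.532 and 0.599.

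**Figure D1:**
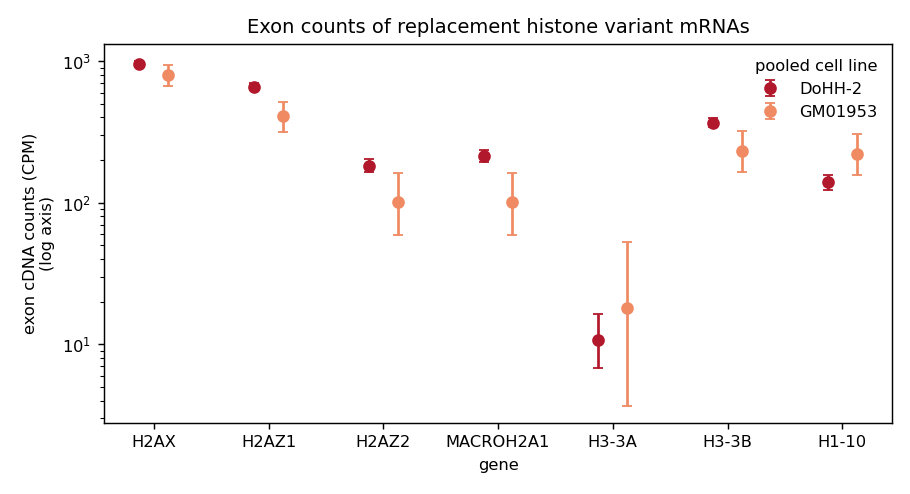
Exon cDNA counts in CPM (log axis) of the 7 replacement variant mRNAs in the pooled DoHH-2 and GM01953 tables, with 95% Poisson intervals that cover counting error only. H2AX is highest in both lines at 955 and 795 CPM, H3-3A is lowest, and H1-10 has its GM01953 point above its DoHH-2 point.

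These ratios lay inside the range of other mRNAs. Of 8661 coding genes that had at least 20 counts over both tables, 61.3% had a ratio above 1, against 5 of the 7 variants, and the median gene had 1.30 (quartiles 0.715 and 2.75) against 1.58 for the median variant. A ratio of at least 2 was reached by 33.9% of coding genes and by 1 of 7 variants. A ratio of 0.5 or less was found for 14.3% of coding genes and for 0 of 7 variants. The replication-dependent histones had a median ratio of 1.36 over 64 genes, with 4 at least 2-fold higher and 15 at least 2-fold lower. When distinct positions took the place of counts, as shares of all positions, 2 of the 7 variants lay above 1 and the summed ratio was 0.744. As shares of all counts at sites, the summed ratio was 2.40.

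When a bound mRNA was taken as one with more than 20 counts at sites, 6 of the 7 variants were bound in DoHH-2, where 34.1% of coding genes with a count were. The exception was H3-3A, with 13 counts at sites. In GM01953, H2AX (87 counts at sites), H2AZ1 (33) and H3-3B (23) were bound, which is 3 of 7 beside 6.96% of coding genes. The other 4 held between 2 and 14 counts at sites there, and the number of counts in the smaller table limits this call. The study also required enrichment of iCLIP over total RNA, which was not applied here, so its calls can differ.

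Levels between genes were compared per kb of the canonical mRNA. In DoHH-2, H2AZ1 was highest with 734 CPM per kb (695 to 776) and H2AX second with 599.7 (573 to 627). Then came H3-3B with 135, MACROH2A1 with 98.0, H1-10 with 91.8, H2AZ2 with 58.0 and H3-3A with 8.73 (5.26 to 13.6). Of these neighbours only MACROH2A1 and H1-10 had overlapping intervals. In GM01953, H2AX (499.7) and H2AZ1 (469.6) overlapped, and H1-10 (146) came next, ahead of H3-3B (86.2), with overlapping intervals. MACROH2A1 (43.7), H2AZ2 (25.7) and H3-3A (16.8) were lowest. The short H2AZ1 mRNA thus had the densest cross-linking in DoHH-2, and H3-3A the sparsest there. In GM01953 H3-3A rested on 3 counts and its interval (3.46 to 49.0) overlapped those of H2AZ2 and MACROH2A1, and over unique bases it lay above 4 of the other variants.

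The level of H3-3A has to be read beside how much of its sequence is unique. Of its 1070 bases only 72 (6.73%) start a 31-nt word found once in the genome, and none of its coding sequence does. There are 13 annotated pseudogenes that each share at least 20 such words with it, and together they held 26 counts in DoHH-2 and 1 in GM01953. By contrast, 100% of H1-10, 98.8% of MACROH2A1, 96.1% of H2AX, 75.9% of H2AZ2, 74.9% of H3-3B and 57.7% of H2AZ1 was unique. When only unique bases and their counts were kept, H3-3A held 13 counts in DoHH-2, or 88.8 CPM per kb (47.3 to 152), which overlapped MACROH2A1 (99.2), H1-10 (91.8) and H2AZ2 (71.3) and, at its upper end, H3-3B at 163 (151 to 176). Of these 13 counts, positions 5, 10 and 4 of the H3-3A mRNA held 5, 2 and 1. The level over unique bases thus rests largely on the 5′ end and does not describe the whole mRNA. In GM01953 H3-3A held 2 counts on unique bases, or 166 CPM per kb (20.1 to 600.1). H2AZ1 rose from 734 to 1130 CPM per kb in DoHH-2 by the same step, and H2AX stayed near 602. How reads with several matches were treated for iCLIP is not given in the sources used here, and its part in the H3-3A level was not tested.

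To see where eIF4B contacted these mRNAs, counts on the canonical transcript were divided over the 5′ UTR, a start codon and a stop codon region reaching 50 nt to each side, the CDS between them, and the 3′ UTR. H2AX was the one well-covered variant with most counts around the stop codon. That region held 942 of 1941 counts in DoHH-2, or 48.5% (46.3 to 50.8), and 52 of 133 in GM01953, or 39.1% (30.8 to 47.9). The start codon region followed with 24.4% and 28.6%. When distinct positions were counted in place of counts, the stop codon region of H2AX held 21.5% in DoHH-2, behind the CDS with 38.8%, and 31.9% in GM01953, where it still led. By density per nt it led in DoHH-2 with 49.8%, but in GM01953 the 5′ UTR led with 41.3% against 31.3%. Among coding genes with over 20 transcript counts in a line (7924 in DoHH-2 and 1020 in GM01953), those around the stop codon were the largest class in 1.41% in DoHH-2 and 8.43% in GM01953, and the median gene held 2.86% and 0% there. They were the largest class in 51 of 53 replication-dependent histone genes in DoHH-2 and 55 of 61 in GM01953, with a median of 65.5% and 76.1%.

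By all counts in DoHH-2, the stop codon region led in none of the other 6 variants, though H3-3A had too few counts to tell. In H2AZ1 the 5′ UTR held 34.3% (31.7 to 36.9) and the 3′ UTR 25.8%, but by distinct positions the 5′ UTR held 15.8% and the 3′ UTR 34.8%, so the lead of the 5′ UTR was lost. H2AZ2 had 47.9% (42.6 to 53.2) in the 3′ UTR, MACROH2A1 had 55.5% (50.4 to 60.6) and H3-3B had 37.7% (34.2 to 41.3). The lead of H2AZ2 depended on the transcript and on length. On its longest coding transcript the CDS led with 52.4% and the 3′ UTR held 8.82%. By counts per nt, summed over the 5 regions, the 5′ UTR led with 34.5% against 4.63%. That density divides by 2473 nt of 3′ UTR, though 165 of the 187 counts after the stop codon lay within 273 nt of it. The density over this shorter stretch was not taken, so the 4.63% does not describe it. By the same density measure the 5′ UTR also led in H3-3B, with 41.6% against 3.03%, while MACROH2A1 kept its 3′ UTR lead with 39.0%. H1-10 was split between the 5′ UTR with 35.3% and the 3′ UTR with 36.7%, and held only 2 of 283 counts around its start codon. Of the 19 transcript counts of H3-3A, 10 lay in the 5′ UTR and 6 around the stop codon, the latter 31.6% (12.6 to 56.6). The stop codon region held 9.51% in H2AZ1, 7.56% in H2AZ2, 4.97% in MACROH2A1, 12.5% in H3-3B and 5.65% in H1-10. Among the same 7924 coding genes in DoHH-2 the CDS led in 54.6%, the 3′ UTR in 37%, the 5′ UTR in 4.09% and the start codon region in 2.98%.

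Region shares differed between the lines for some variants. Among the 1020 coding genes in GM01953 the CDS led in 49.6%, the 3′ UTR in 20.4%, the 5′ UTR in 14.1% and the start codon region in 7.45%. H2AZ1 kept its 5′ UTR lead in GM01953 with 35.3% (24.1 to 47.8), but its 3′ UTR held 4 of 68 counts, or 5.88% (1.63 to 14.4), against 25.8% (23.4 to 28.2) in DoHH-2. H1-10 had 67.6% (50.2 to 82.0) in the 5′ UTR of GM01953 against 35.3% (29.8 to 41.2) in DoHH-2, and 5.41% (0.661 to 18.2) against 36.7% (31.1 to 42.7) in the 3′ UTR. MACROH2A1 had 12 of 14 counts in the CDS in GM01953 and 0 of 14 in the 3′ UTR, which allows a share of up to 21.4%, below the 55.5% of DoHH-2. H3-3B had 1 of 39 counts in the 5′ UTR and 15 of 39 around the start codon, or 38.5% (23.4 to 55.4) against 16.8% (14.2 to 19.7). For H2AZ2, with 13 counts, every region overlapped its DoHH-2 interval. All 3 counts of H3-3A lay in the stop codon region. Over the 976 coding genes that passed 20 transcript counts in each line, the 3′ UTR share was 17.0% in DoHH-2 against 15.1% in GM01953. The median gene had 29.9% and 14.3%.

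**Figure D2:**
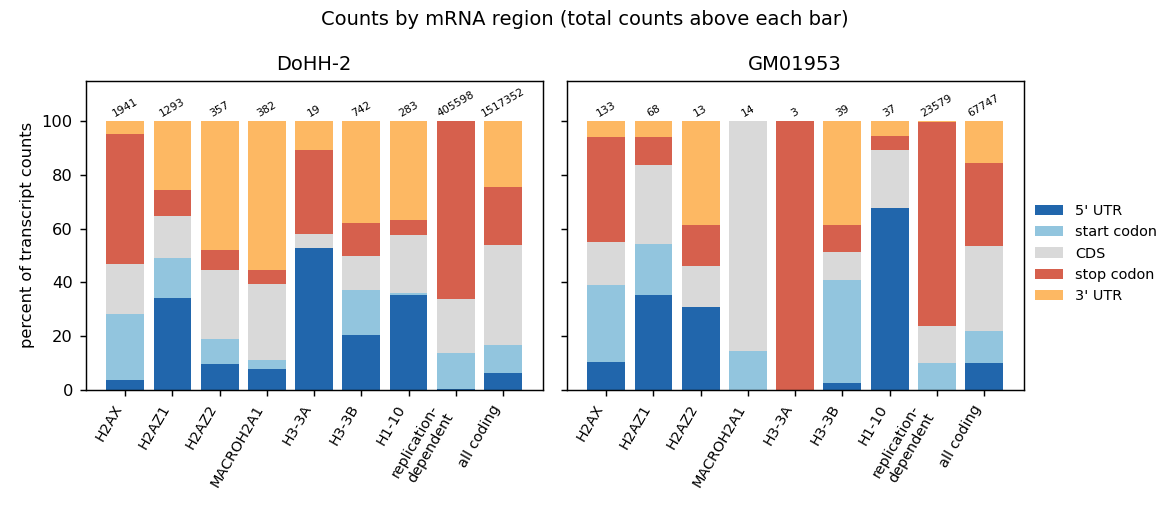
Percent of transcript counts in the 5 mRNA regions for each variant, the replication-dependent histone genes and all coding genes (both sets with over 20 counts a gene), in DoHH-2 (left) and GM01953 (right), with total counts above each bar. H2AX has 48.5% and 39.1% around the stop codon, between the replication-dependent histones (66.2% and 76.1%) and most other variants.

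H2AX carries the 16-nt stem–loop printed above in its 3′ UTR. Its first base is 50 nt after the last base of the stop codon, with 49 nt between them, and 1024 nt follow it to the end of the annotated polyadenylated transcript. The same 16 letters, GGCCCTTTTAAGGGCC, were found in 1 of 7 variants and in 1 of 12133 canonical coding transcripts searched on the transcribed strand, which is H2AX itself. Other histone stem–loops differ in some letters, so this says nothing of them. Of the H2AX counts in DoHH-2, 457 lay in the 50 nt before the stem–loop and 483 in the 50 nt before those. Inside the stem–loop there was 1 count, and 1 in the next 50 nt. In GM01953 the numbers were 28, 24, 0 and 0, where a count of 0 allows up to 2.26%. Counts thus dropped to near 0 at the stem–loop in both lines. The short mRNA ends after the stem–loop, and whether cross-links this near its end give reads that can be mapped was not tested.

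Beyond the stem–loop lay 90 counts in DoHH-2 (4.64%) and 8 in GM01953 (6.02%), over 1024 nt. These fell on sequence that the short mRNA mostly lacks. Their density was 8.79 per 100 nt in DoHH-2, against 929 per 100 nt between the stop codon and the stem–loop. The 71-nt 5′ UTR held 494 counts (25.5%) in DoHH-2 and 44 (33.1%) in GM01953, or 696 and 62.0 per 100 nt.

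Single bases of H2AX recurred in both lines. The first base of the stop codon (tcccaggagtacTaagagggcccgc) held 100 counts in DoHH-2 and 12 in GM01953, or 5.15% and 9.02% of its counts. The bases at positions 497 and 498 of the mRNA, shortly upstream of this one at position 501, in codons 142 and 143, held 75 and 65 counts in DoHH-2 and 1 and 6 in GM01953. After the stop codon, counts lay in 2 groups of bases, chosen after the values were seen. Those 20 to 24 nt after it held 110 counts in the DoHH-2 table and 8 in GM01953, with the highest single bases at position 527 in DoHH-2 (56 counts) and position 524 in GM01953 (7 counts, with 30 in DoHH-2). Those 28 to 38 nt after it, nearer to the stem–loop, held more, with 194 counts in DoHH-2 and 15 in GM01953. In the 5′ UTR, position 60, which is 12 nt before the start codon, held 21 and 9 counts. The highest GM01953 position of the 5′ UTR, position 8 (11 counts), held 7 in DoHH-2.

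H2AZ1 was cross-linked at its 5′ end. The first 50 nt of the mRNA held 399 of 1293 transcript counts in DoHH-2 (30.9%) and 24 of 68 in GM01953 (35.3%). All 5 of its highest DoHH-2 positions lay in the 5′ UTR between positions 16 and 53. The highest, position 23 (tcgcggtgcgacGaaggagtaggtg), held 53 counts in DoHH-2 and none in GM01953. Position 20 held 26 and 3. Positions 203 and 379 in the coding sequence led together with position 7 in GM01953, with 4, 5 and 4 counts, and held 12, 1 and 3 in DoHH-2.

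H2AZ2 had a single cluster in its 3′ UTR. The highest base, 231 nt after the stop codon (ctcccgtgtgttTtatacaaaaatg), held 21 counts in DoHH-2, and the 5 nt around the next base held 63 counts, 17.6% of all on the mRNA. That cluster lay 31 and 42 nt before 2 annotated ends of shorter H2AZ2 transcripts, at chr7:44834239-44834239 and chr7:44834228-44834228 in GRCh38. Another annotated end, chr7:44834310-44834310, lay before the cluster, 191 nt after the stop codon, with 56 DoHH-2 3′ UTR counts before it and 131 after. Of the 187 counts in the H2AZ2 3′ UTR in DoHH-2, 165 lay before the end at chr7:44834228-44834228 and 22 in the remaining part of the 2523-nt 3′ UTR. GM01953 had 0 counts at the cluster base, with 4 and 2 counts before and after that end. With 13 H2AZ2 transcript counts in GM01953, a count of 0 allows a share of up to 23.1%. Whether the cluster is absent there therefore cannot be told. MACROH2A1 had 4 of its 5 highest DoHH-2 positions between 104 and 207 nt after the stop codon, with 8 to 13 counts each, and 13 also at codon 21. In GM01953 it had 6 counts at codon 217 and 4 at codon 48, each with 1 count in DoHH-2.

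The H3.3 pair could be compared over its coding sequence, which is identical at 323 of 411 bases (78.6%) and in 58 of 137 codons and shares no 31-nt word. H3-3B held 219 coding counts in DoHH-2 and H3-3A held 1, in a coding sequence with no unique word. The highest H3-3B position, 43 nt into the 5′ UTR (cggtgctggtttTtcgctcgtcgac), held 22 counts in DoHH-2 and 0 in GM01953. Codons 4 and 9 of H3-3B were cross-linked in both lines, with 16 and 9 counts in DoHH-2 and 4 and 6 in GM01953. The most used H3-3A base in DoHH-2, position 5 of the mRNA, held 5 counts, and position 554, 24 nt after the stop codon, held 2 in DoHH-2 and 1 in GM01953. The H2A.Z pair was identical at 311 of 387 bases (80.4%). H2AZ1 held 292 coding counts and H2AZ2 held fewer, with counts at 62 and 46 codons and at 28 codons in both. Spearman's rho over codons was 0.17, over 129 codons in 1 pooled library, and no p is given since codons are not replicates.

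The highest bases of H1-10 differed between the lines. In GM01953 its 5′ UTR bases 111 (gcctaggtctacGtccccagctcca) and 108 held 7 and 5 of 37 counts, and each held 3 of 283 in DoHH-2. The highest DoHH-2 base, position 46, held 8 counts in DoHH-2 and 0 in GM01953. In the 3′ UTR the highest, 249 nt after the stop codon, held 6 and 0.

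Of the 154 GM01953 positions in the variants, 107 (69.5%) were also positions of DoHH-2, and they held 79.9% of the GM01953 counts. Over all coding exons 37.7% of GM01953 positions, with 50.7% of the counts, were shared. The shares were 38 of 47 for H2AX, 37 of 41 for H2AZ1, 16 of 20 for H3-3B, 7 of 21 for H1-10, 5 of 13 for H2AZ2, 3 of 9 for MACROH2A1 and 1 of 3 for H3-3A. The 3 variants with the most DoHH-2 counts thus shared most, and a gene with more DoHH-2 positions has more to share.

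UV joins protein to uridine more readily than to other bases, so the base at the cross-link was compared with the base make-up. T, which stands for U in the DNA letters used here, held 42.5% of coding counts in DoHH-2 while 26.3% of transcript bases are T, and 40.5% against 25.5% in GM01953. In the 3′ UTR in DoHH-2, T held 68.2% of H3-3B counts (32.5% of bases), 65.0% for MACROH2A1 (35.5%), 63.1% for H2AZ2 (29.9%), 61.0% for H1-10 (24.3%) and 52.5% for H2AZ1 (36.6%). In H2AX, 16.1% of the 546 3′ UTR counts were on T, where 18.8% of all 1089 3′ UTR bases are T. Of those counts, 455 lay in the 49 nt between the stop codon and the stem–loop. The T share of that stretch was not taken, so these 2 percentages show no presence or lack of a preference. H3-3A had 3′ UTR counts too few to read, at 8. Over the whole mRNA, T held 25.9% of H2AX counts against 17.3% of bases, and 33.3% of H2AZ1 counts against 28.8%.

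The genes whose division over the 5 regions in both lines was nearest to a variant could be found for H2AX and H2AZ1 alone, since the other 5 had under 50 counts in GM01953. Likeness was the summed difference of 10 shares in percentage points, over 253 genes. The nearest to H2AX were the replication-dependent histone genes H3C1 (56.6 points) and H3C11 (64.4), then RPL37A (66.9), a ribosomal protein gene. The nearest to H2AZ1 were ATF5 (60.9), VAPA (64.3) and TUBA1B (66.9).

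Among the other replacement variants, counts ranged from 0 to 66 in DoHH-2, and only CENPA had counts in GM01953. MACROH2A2 had 0 counts in both lines, where the 3-count floor is 1.48 CPM in DoHH-2 and 17.9 in GM01953. H3-5 had 3 and 0. H2AJ had 57 in DoHH-2 and 0 in GM01953, and CENPA, the H3 of centromeres, had 66 and 14, a ratio of 0.388 (0.216 to 0.747). Among 19 genes for the chaperones and remodellers that place the variants, 15 had a ratio above 1 and 4 below, with 5 at least 2-fold higher, 1 at least 2-fold lower and a median of 1.37, beside 61.3%, 33.9%, 14.3% and 1.30 for all coding genes. Apart from SUPT16H (69 GM01953 counts), those at least 2-fold higher rested on 2 to 7 counts in GM01953. In DoHH-2, 15 of the 19 were bound, and in GM01953 6 were, beside 34.1% and 6.96% of coding genes. The 4 with the most counts were NAP1L1 (2015 and 123), a chaperone of H2A and H2B, SUPT16H (1779 and 69), a subunit of FACT, ANP32E (1637 and 72), which removes H2A.Z from chromatin, and DEK (1030 and 70), a chaperone of H3.3. ASF1B, which passes H3 and H4 to other chaperones, was the one at least 2-fold lower, at 0.461 (0.317 to 0.690).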

How the data were processed

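The values analysed were 1 table of cross-link positions per cell line. The authors removed PCR duplicates, trimmed barcodes, pooled all replicates of a line, mapped the reads to GRCh38 by HISAT2 and ran iCount. The tables hold whole cDNA counts that the authors did not normalize, and an FDR (a p-value after adjustment) that the authors deposited for each position. Versions and the treatment of reads with several matches are not given in the sources used here. Positions were found to be counted from 0, from the base make-up on both strands, and 1 was added.

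Positions listed for several genes were counted once. Exons and canonical transcripts came from GENCODE release 44. Of the positions, 99.4% in DoHH-2 and 99.3% in GM01953 lay inside the GENCODE span of their listed gene. Counts were divided by all counts of the table and multiplied by 1000000 (CPM). For sites alone the divisor was the counts at sites (888079 in DoHH-2 and 92989 in GM01953). For distinct positions it was the number of positions. Replication-dependent histones were taken by gene symbol. The H2AX stem–loop letters came from a supplementary table of the study and were located in the transcript. Uniqueness was read from 31-nt words over GRCh38 without alternate contigs. A bound gene has more than 20 counts at an FDR below 0.05, with no requirement of enrichment over total RNA. Intervals are exact at 95%. Depth was 2033156 and 167197 counts. Python 3.11.15 with numpy 2.4.6, pandas 2.3.3, scipy 1.17.1 and pysam 0.24.0 was used, and figures were drawn with matplotlib 3.10.9. The steps were tested on simulated data. The genes named are the 7 variants, 4 other variants and 19 genes for their deposition (values for the 4 with most counts), the nearest 3 genes to a variant, and markers. A further listed gene is not reported here. ASF1B and MS4A1 were named after their values were seen. The variants and lists were chosen with earlier results of these data known. Alternatives were FDR thresholds, exon sets, distinct positions, scaling, codon windows and transcripts, and, after the data were seen, the base from which positions count. No column holds a single replicate.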

Additional observations from a re-analysis of the deposited data

Results flagged for a closer look

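Counts outside the exons were not part of any comparison above. In DoHH-2, counts inside the gene span but outside every exon numbered 30 for H2AZ2, 26 for MACROH2A1 and 7 for H3-3A, each more than the 3 that a count of 0 allows. On the opposite strand inside the span of H3-3B there were 7 counts in DoHH-2. These are values from 1 pooled table with no control library.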

How the results depend on the processing

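With distinct positions in place of counts, the ratio of the summed shares fell below 1, to 0.744, and 2 of 7 variants were higher in DoHH-2. H2AX (0.532), H2AZ1 (0.599) and H2AZ2 (0.962) also fell below 1. Single-count positions are 83.9% of the deeper table and 60.8% of the other, and their part in this was not tested. With sites alone, as shares of all counts at sites, the summed ratio was 2.40. The other 7 alternatives for the summed ratio lay within 1.5 times of it. In GM01953, 5 variants were bound with more than 10 counts and 1 with more than 50. The number of variants with most counts around the stop codon in DoHH-2 was 2 without the highest position of each gene and 0 with distinct positions, and in GM01953 it was 1 on the longest coding transcript, which holds no H3-3A count, and 1 with summed densities, where H2AX was the variant lost. A cause beyond the construction of each alternative was not tested. Of the 14 highest positions, 10 lay within 5 nt of the centre of the highest 5-nt window. No paired analysis was possible because the tables pool all replicates, and for the same reason no replicate could be left out. Depth limits GM01953 most, where 4 of the 7 variants have 37 counts or fewer.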
